A study of Mus musculus with 18 samples.

Results

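A set of 39 pan-myeloid and phagocyte genes was followed in mouse liver. It holds genes used across macrophages, monocytes and neutrophils, or across leukocytes more widely, for the oxidative burst, antibody and debris uptake, adhesion, chemotaxis and digestion. The members were chosen by their known function, as a list of 39 gene symbols, and all 39 were found among the 15052 genes measured. Earlier results of these data were known when the list was made.

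RNA of whole liver was sequenced from 18 mice, which were 10 to 12 weeks old and labelled female. WT mice were C57BL/6J and *Apoe* KO mice lacked apolipoprotein E in every cell of the body, so that the KO is not limited to macrophages. After 5 days of acclimation to liquid diet, EtOH-fed mice spent 10 days on a Lieber-DeCarli diet that held ethanol at 5% by volume, and on day 11 were gavaged with ethanol at 5 g/kg. Pair-fed mice received an isocaloric diet without ethanol and a gavage of 9 g/kg dextrin maltose. All mice were killed 9 h after the gavage. Of the WT mice 4 were pair-fed and 5 EtOH-fed, and of the *Apoe* KO mice 5 were pair-fed and 4 EtOH-fed, the last with the numbers 1, 2, 4 and 5. Each mouse was 1 replicate.

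Phagocytes recognize antibody-coated or complement-coated particles through Fc receptors and β2 integrins. Activating Fc receptors and several lectin and TREM receptors have no signaling tail of their own and depend on the adaptors FcRγ (*Fcer1g*) and DAP12 (*Tyrobp*), whose ITAM motifs recruit Src-family kinases and SYK. Uptake is followed by the oxidative burst of the NADPH oxidase and by lysosomal digestion. In liver, most phagocytes are resident Kupffer cells, which are joined during injury by monocytes and neutrophils. The transcription factor PU.1, encoded by *Spi1*, directs the myeloid program and binds purine-rich DNA with the core GAGGAA. Several members are not restricted to myeloid cells: *Ptprc*, *Coro1a*, *Lcp1*, *Cd53*, *Cd52*, *Laptm5* and *Itgb2* are used by leukocytes in general, *Cyba* is expressed broadly, and *Mrc1* is also expressed by liver sinusoidal endothelial cells.

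Promoters are shown for the 3 Fc receptor genes, all of which were called higher in *Apoe* KO than in WT mice under ethanol, and for the gene of their shared adaptor. The 250 bases before the transcription start were taken from RefSeq (GRCm38.p6) and read 5′ to 3′ on the strand of the gene. Capitals mark the heptamer GAGGAAG on the opposite strand, which reads CTTCCTC on the strand of the gene.
*Fcgr1* (chr3:96293970-96294219, minus strand): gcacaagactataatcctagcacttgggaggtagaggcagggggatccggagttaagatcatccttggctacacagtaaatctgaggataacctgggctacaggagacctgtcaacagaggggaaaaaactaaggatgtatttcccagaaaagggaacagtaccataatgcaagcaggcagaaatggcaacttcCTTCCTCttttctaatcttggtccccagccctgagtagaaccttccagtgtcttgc
*Fcgr3* (chr1:171059395-171059644, minus strand): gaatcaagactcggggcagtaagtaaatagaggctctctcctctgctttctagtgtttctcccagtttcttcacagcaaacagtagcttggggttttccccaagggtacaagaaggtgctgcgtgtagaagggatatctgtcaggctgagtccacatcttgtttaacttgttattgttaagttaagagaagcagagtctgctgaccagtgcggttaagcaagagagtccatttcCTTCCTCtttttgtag
*Fcgr4* (chr1:171018676-171018925, plus strand): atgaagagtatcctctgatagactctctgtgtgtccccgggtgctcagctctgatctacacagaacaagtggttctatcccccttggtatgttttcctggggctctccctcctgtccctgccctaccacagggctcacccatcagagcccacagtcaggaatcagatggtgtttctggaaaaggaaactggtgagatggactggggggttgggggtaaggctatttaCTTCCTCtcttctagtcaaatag
*Fcer1g* (chr1:171234350-171234599, minus strand): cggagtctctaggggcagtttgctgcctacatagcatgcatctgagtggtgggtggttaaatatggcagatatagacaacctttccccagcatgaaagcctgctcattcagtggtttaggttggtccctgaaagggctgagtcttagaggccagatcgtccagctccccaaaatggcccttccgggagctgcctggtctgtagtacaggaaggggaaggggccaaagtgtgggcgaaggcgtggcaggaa
The first base of the heptamer lay at -56 in *Fcgr1*, at -16 in *Fcgr3* (at -7 from the other of its 2 starts, which is not shown) and at -23 in *Fcgr4*, counted back from -1, the base before the start. The *Fcer1g* window held none. Promoters of 28 of the 39 members were present in the RefSeq table, with 33 starts in all. The heptamer, searched on both strands, was in 9 of these 33 promoters (27.3%), belonging to 8 genes: *Fcgr1*, *Fcgr3*, *Fcgr4*, *Itgam*, *Laptm5*, *Mrc1*, *Pirb* and *Trem2*. Among 32851 promoters of all genes, 3486 (10.6%) held it, and among those of the genes measured here 11%. Counted by gene, it was in 8 of 28 members and in 1395 of 10715 genes measured here. The shorter core GAGGAA was in 14 of the 33 promoters (42.4%), against 23.3% of all promoters and 22.5% of those of the genes measured. These are matches of letters, chosen after they were seen and not tested, and they do not show binding.

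The deposited values are read counts per gene that were brought to almost the same total in each mouse and rounded. They are called scaled counts here. Totals differed by at most 0.0779% between mice and thus do not give the depth. The spacing of the low values resolved the depth in 16 of 18 mice, at an estimated 5.60 to 52.2 M reads on genes (M, 1e6). EtOH-fed mice differed in depth by genotype, with a median of 39.5 M reads in WT (3 mice resolved) and of 11.0 M reads in *Apoe* KO. *Apoe* itself had scaled counts of 611230 to 798431 in WT and 8586 to 108651 in *Apoe* KO mice, with no overlap. EtOH-fed *Apoe* KO mouse 1 went against its label of sex, with a scaled count of 826 for *Xist* against 15227 to 30379 in the other 17 mice, and of 1077 for the Y-linked *Ddx3y* against 2 to 118. The counts of called genes that rest on this mouse are therefore also given without it. All 12 hepatocyte markers listed were measured in these livers, with a summed scaled count of 2351347 to 3978340.

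The main comparison asked how hepatic expression of these genes depended on *Apoe* under ethanol. Under ethanol all 39 members had a higher mean in *Apoe* KO than in WT mice, and 28 passed the test (limma on log2(scaled count + 1), Benjamini-Hochberg adjusted p under 0.05 over all 15052 genes). None was called lower. Of all genes, 4.25% were called higher and 0.445% lower, and 66.6% had a difference above 0. The median log2 difference of the members was 1.02, against 0.11 for all genes. In 30 of 39 members the 4 *Apoe* KO values lay above the 5 WT values without overlap, which 7.12% of all genes did. The largest differences were those of *Gpnmb*, *Trem2*, *Fcgr1*, *Adgre1* and *Lyz2*. Group values are given as mean ± SD over the mice of a group, and log2 differences with their standard error (SE). Counts of this kind cannot tell more cells of a type from more RNA per cell in whole tissue.

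**Figure D1:**
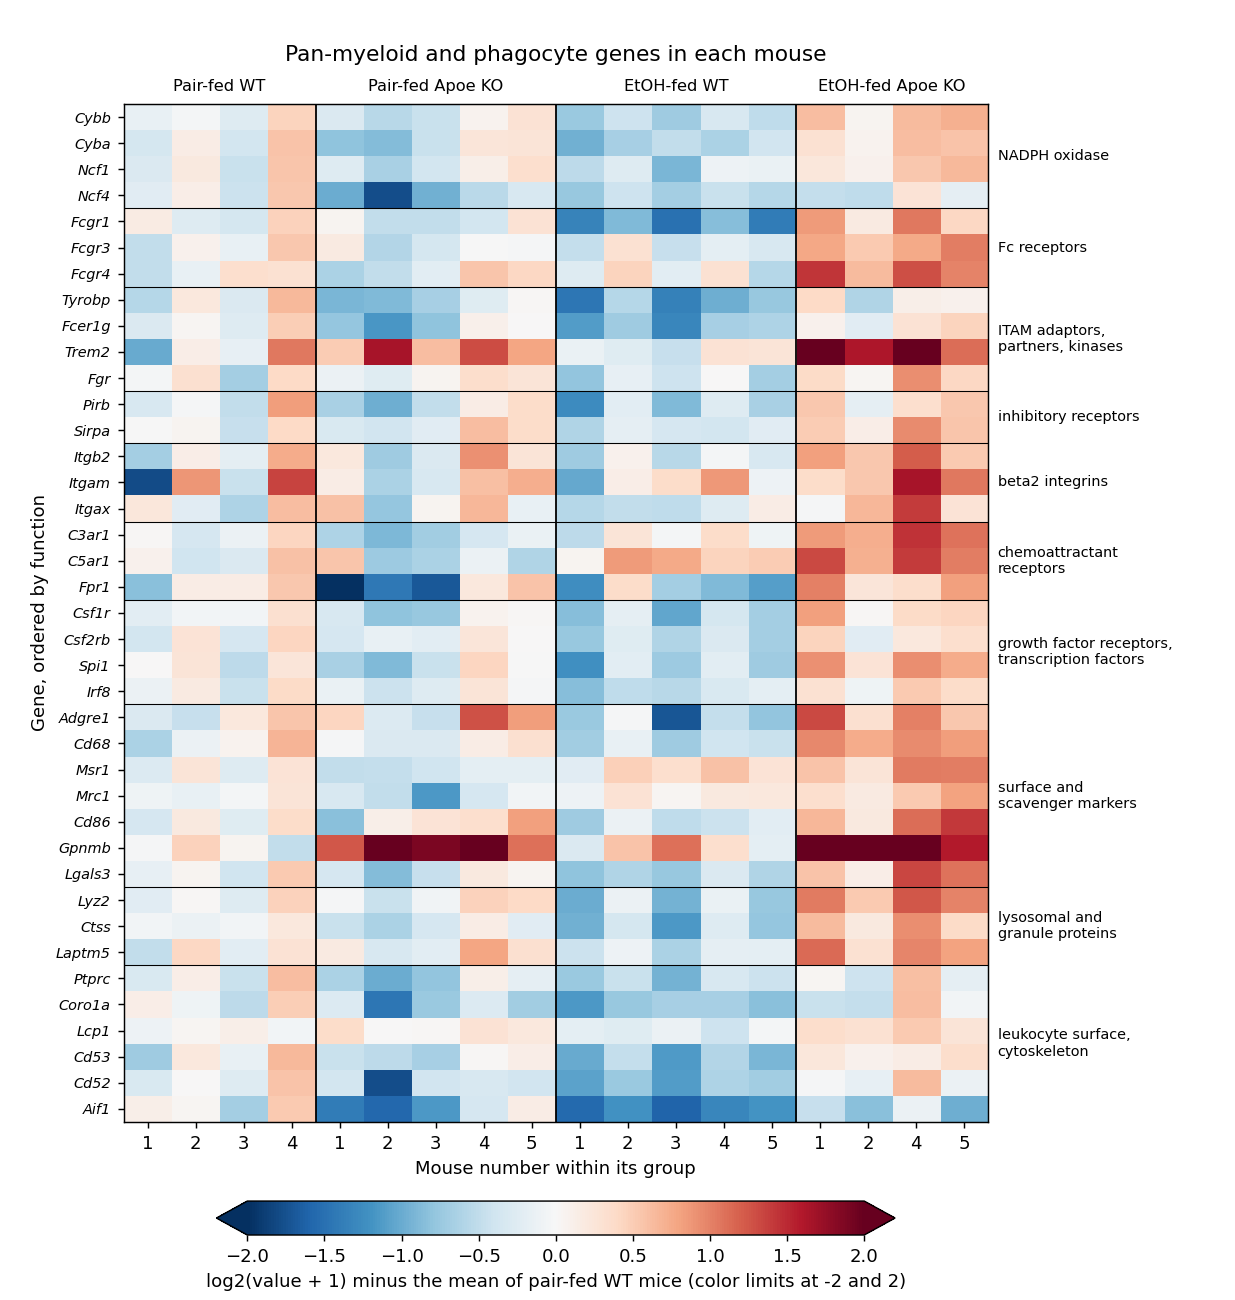
Each column is a mouse and each row a member, ordered by function. Color shows log2(scaled count + 1) minus the mean of the 4 pair-fed WT mice, with color limits at -2 and 2. The 4 EtOH-fed *Apoe* KO columns are mostly above 0 and the 5 EtOH-fed WT columns mostly below it.

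The median of all genes was itself 0.13 log2 units lower with median-of-ratios size factors (-0.02), and the members' median was then 0.89, with 25 called higher. The share of calls in the higher direction, over all genes, was 90.5% as deposited and 75.1% with size factors. Without EtOH-fed *Apoe* KO mouse 1, 24 members were called higher at a median of 1.01. *Tyrobp*, *Pirb*, *Fpr1* and *Csf2rb* were the calls lost. This mouse also had the deepest library of its group (45.8 M reads), and its mean log2 level over the members, at 0.61 log2 units above pair-fed WT mice, lay among the 0.91, 0.58 and 0.24 of the other mice (numbers 4, 5 and 2, with 7.88, 8.39 and 13.5 M reads). A single mouse cannot tell depth from genotype, and the part of depth in the result was not tested. Under the 15 alternatives, which include leaving out each mouse, 22 of the 28 calls held throughout, and the exceptions were *Tyrobp*, *Pirb*, *C3ar1*, *Fpr1*, *Csf2rb* and *Irf8*. Leaving out EtOH-fed *Apoe* KO mouse 4 ended each of these 6 calls, leaving out mouse 5 of that group or EtOH-fed WT mouse 1 ended all but that of *C3ar1*, and leaving out EtOH-fed WT mouse 3 ended those of *Tyrobp*, *Pirb*, *Fpr1* and *Csf2rb*. Those of *Pirb*, *Fpr1* and *Csf2rb* also ended without EtOH-fed WT mouse 5, and that of *Fpr1* without EtOH-fed WT mouse 4.

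The NADPH oxidase of phagocytes consists of a membrane heterodimer and of cytosolic subunits that join it on activation. *Cybb* (ENSMUSG00000015340, chrX:9435252-9487771, minus strand) encodes the catalytic subunit gp91phox, and its scaled counts were 663, 721, 615 and 1010 in pair-fed WT mice, 607, 503, 541, 773 and 898 in pair-fed *Apoe* KO mice, 441, 555, 450, 591 and 518 in EtOH-fed WT mice, and 1129, 766, 1146 and 1211 in the EtOH-fed *Apoe* KO group. Every EtOH-fed *Apoe* KO mouse lay above every EtOH-fed WT mouse, and the EtOH-fed WT mice lay below all pair-fed WT mice. The log2 difference between the EtOH-fed genotypes was 1.04 ± 0.15 (SE, adjusted p = 0.00303), or 2.06-fold. *Cyba* (ENSMUSG00000006519, chr8:122424776-122432930, minus strand), the membrane partner p22phox, had scaled counts of 369, 523, 367 and 704 in pair-fed WT mice, 269, 260, 348, 557 and 567 in pair-fed *Apoe* KO mice, 242, 299, 335, 305 and 361 in EtOH-fed WT mice, and 586, 496, 725 and 704 in the EtOH-fed *Apoe* KO group. Here too the EtOH-fed genotypes were apart, with a log2 difference of 1.02 ± 0.16 (SE, adjusted p = 0.00387). The organizing cytosolic subunit p47phox is encoded by *Ncf1* (ENSMUSG00000015950, chr5:134220053-134229625, minus strand), with scaled counts of 167, 234, 150 and 301 in pair-fed WT mice, 171, 130, 159, 223 and 260 in pair-fed *Apoe* KO mice, 143, 171, 108, 191 and 187 in EtOH-fed WT mice, and 240, 217, 299 and 323 in the EtOH-fed *Apoe* KO group. Its EtOH-fed genotypes did not overlap, but the log2 difference of 0.76 ± 0.21 (SE, adjusted p = 0.0541) did not pass the threshold. *Ncf4* (ENSMUSG00000071715, chr15:78244801-78262580, plus strand), the p40phox subunit that binds phosphoinositides, had scaled counts of 104, 134, 90 and 177 in pair-fed WT mice, 61, 35, 62, 84 and 98 in pair-fed *Apoe* KO mice, 72, 91, 76, 89 and 82 in EtOH-fed WT mice, and 87, 86, 147 and 108 in the EtOH-fed *Apoe* KO group. The groups overlapped, and the log2 difference was 0.35 ± 0.23 (SE, adjusted p = 0.451). The membrane subunits thus passed the test and the listed cytosolic members did not, although whether the subunits differ from each other was not tested. Among 7 other measured genes of the oxidase, 3 were called higher, among them *Rac2*, the GTPase of the complex, by 1.13 log2 units (adjusted p = 0.00947) and *Vav1*, its exchange factor, by 1.18 (adjusted p = 0.0135).

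Fc receptors for IgG bind antibody-coated particles. *Fcgr1* (ENSMUSG00000015947, chr3:96282909-96293969, minus strand) encodes the high-affinity receptor CD64, and its scaled counts were 225, 167, 157 and 276 in pair-fed WT mice, 209, 142, 142, 156 and 247 in pair-fed *Apoe* KO mice, 79, 109, 71, 111 and 76 in EtOH-fed WT mice, and 363, 227, 418 and 269 in the EtOH-fed *Apoe* KO group. The lowest EtOH-fed *Apoe* KO mouse had more than 2 times the count of the highest EtOH-fed WT mouse, while both pair-fed groups lay above the EtOH-fed WT mice and overlapped each other. The log2 difference was 1.81 ± 0.23 (SE, adjusted p = 0.0012), or 3.51-fold. *Fcgr3* (ENSMUSG00000059498, chr1:171051174-171064935, minus strand), an activating low-affinity receptor, had scaled counts of 179, 268, 227 and 365 in pair-fed WT mice, 284, 167, 196, 249 and 247 in pair-fed *Apoe* KO mice, 180, 310, 183, 219 and 201 in EtOH-fed WT mice, and 432, 360, 426 and 511 in the EtOH-fed *Apoe* KO group. Its EtOH-fed genotypes did not overlap, and they differed by 1.0 ± 0.18 (SE, adjusted p = 0.00904). *Fcgr4* (ENSMUSG00000059089, chr1:171018920-171029761, plus strand), a further activating receptor with intermediate affinity, had scaled counts of 133, 170, 238 and 234 in pair-fed WT mice, 121, 134, 162, 277 and 252 in pair-fed *Apoe* KO mice, 158, 257, 163, 232 and 126 in EtOH-fed WT mice, and 507, 294, 463 and 377 in the EtOH-fed *Apoe* KO group. All 4 EtOH-fed *Apoe* KO mice lay above all 14 other mice, which overlapped, and the log2 difference under ethanol was 1.15 ± 0.23 (SE, adjusted p = 0.0136). *Fcgr3* and *Fcgr4* lie next to each other and near *Fcgr2b* on chromosome 1, and reads of their similar stretches may be shared between them. Of 4 other measured Fc receptor genes none was called. *Fcgr2b*, the inhibitory receptor that liver sinusoidal endothelial cells also express, was singled out after its values were seen and had scaled counts of 1681 ± 402 in EtOH-fed *Apoe* KO and 1894 ± 206 in EtOH-fed WT mice.

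FcRγ is the adaptor of the activating Fc receptors, and DAP12 serves other receptors such as TREM2. *Tyrobp* (ENSMUSG00000030579, chr7:30413760-30417585, plus strand), which encodes DAP12, had scaled counts of 271, 463, 329 and 627 in pair-fed WT mice, 212, 217, 254, 340 and 406 in pair-fed *Apoe* KO mice, 147, 271, 157, 204 and 237 in EtOH-fed WT mice, and 531, 263, 434 and 427 in the EtOH-fed *Apoe* KO group. EtOH-fed *Apoe* KO mouse 2 fell within the range of the EtOH-fed WT mice, and the others lay above it. The log2 difference was 1.02 ± 0.23 (SE, adjusted p = 0.0262), and the adjusted p ranged from 0.01 to 0.0751 over 15 alternatives, the highest being without EtOH-fed *Apoe* KO mouse 4. *Tyrobp* lies 10.7 Mb from *Apoe*, on the chromosome that carries the targeted allele, and the KO and a linked strain background cannot be told apart there. *Fcer1g* (ENSMUSG00000058715, chr1:171229572-171234365, minus strand), which encodes FcRγ, had scaled counts of 432, 542, 441 and 738 in pair-fed WT mice, 307, 233, 301, 565 and 528 in pair-fed *Apoe* KO mice, 242, 320, 211, 332 and 344 in EtOH-fed WT mice, and 558, 449, 643 and 719 in the EtOH-fed *Apoe* KO group. Its EtOH-fed genotypes did not overlap, and the log2 difference was 1.03 ± 0.19 (SE, adjusted p = 0.00817). *Trem2*, a lipid-binding receptor that pairs with DAP12, had 184 ± 69.6 in EtOH-fed *Apoe* KO and 46.4 ± 10.6 in EtOH-fed WT mice, a log2 difference of 1.91 ± 0.30 (SE, adjusted p = 0.00363). *Fgr*, a Src-family kinase, had 229.8 ± 61.3 in EtOH-fed *Apoe* KO and 126 ± 29.6 in EtOH-fed WT mice. Its log2 difference of 0.85 ± 0.23 (SE, adjusted p = 0.0506) was just short of the threshold, and 5 of 15 alternatives passed it. Among 14 other measured genes listed with the adaptors, their partners and kinases, 6 were called higher and none lower. Whether each of them acts through these adaptors was not tested. They included *Clec7a*, the β-glucan receptor Dectin-1, at 1.34 (adjusted p = 0.00755), *Treml2*, a TREM-family receptor, at 2.22 (adjusted p = 0.0138), and the kinase *Syk* at 0.90 (adjusted p = 0.0149).

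**Figure D2:**
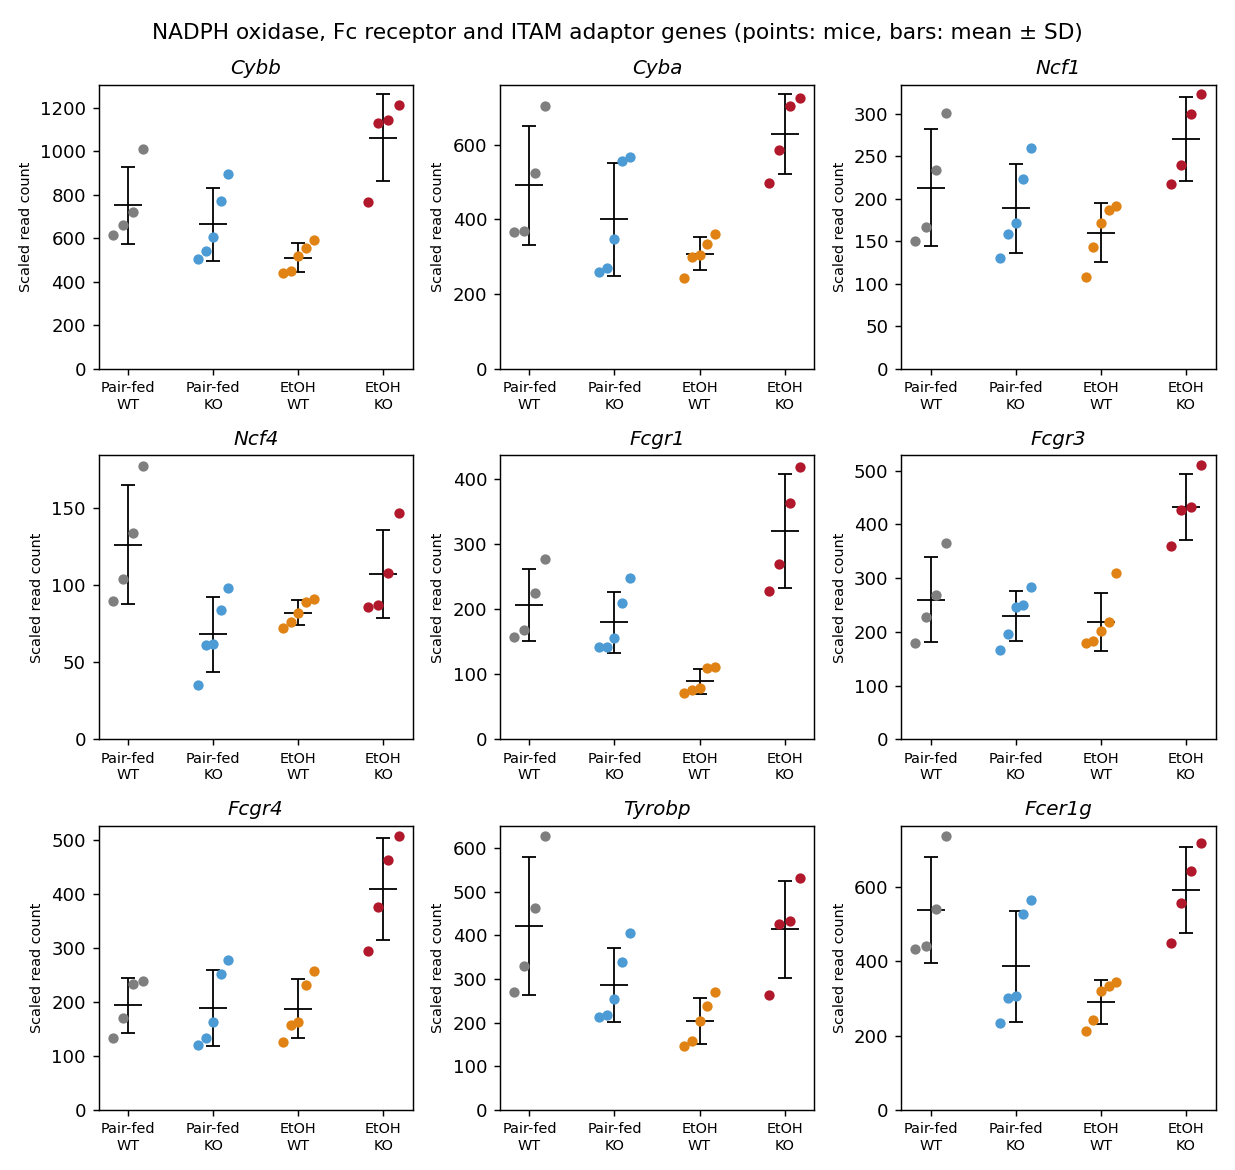
Each panel shows the scaled read counts of a gene (linear axis from 0) by group, with points for mice and bars for mean ± SD. EtOH-fed *Apoe* KO mice lay above all EtOH-fed WT mice in 7 of the 9 genes, the exceptions being *Ncf4* and *Tyrobp*.

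Inhibitory receptors carry ITIM motifs that recruit phosphatases and restrain these signals. *Sirpa*, which binds CD47 and limits the uptake of healthy cells, had scaled counts of 922, 968, 677 and 1225 in pair-fed WT mice, 751, 709, 794, 1428 and 1195 in pair-fed *Apoe* KO mice, 610, 820, 736, 721 and 791 in EtOH-fed WT mice, and 1313, 1017, 1793 and 1369 in the EtOH-fed *Apoe* KO group. The EtOH-fed genotypes were apart, with a log2 difference of 0.88 ± 0.15 (SE, adjusted p = 0.00681). *Pirb*, a receptor for MHC class I, had scaled counts of 242, 298, 215 and 541 in pair-fed WT mice, 193, 153, 214, 337 and 389 in pair-fed *Apoe* KO mice, 126, 262, 163, 253 and 193 in EtOH-fed WT mice, and 439, 267, 381 and 438 in the EtOH-fed *Apoe* KO group. The lowest EtOH-fed *Apoe* KO mouse, at 267, was just above the highest EtOH-fed WT mouse, at 262. Its log2 difference was 0.96 ± 0.23 (SE, adjusted p = 0.0354), a call that 10 of 15 alternatives did not keep (adjusted p from 0.0229 to 0.101). *Pirb* lies 16 Mb from *Apoe*, and reads may be shared with its *Pira* paralogs. The 13 other genes listed with them include partners and a receptor without an ITIM motif, *Siglec1*. Of these 13, 4 were called higher: *Siglec1*, a sialic acid receptor of macrophages, by 1.73 (adjusted p = 0.00246), *Clec12a*, a receptor for uric acid crystals, by 1.23 (adjusted p = 0.00671), *Siglece* by 1.17 (adjusted p = 0.0136) and *Cd300a* by 1.04 (adjusted p = 0.0359).

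The β2 integrins pair a common chain with an α chain for adhesion and complement binding. *Itgb2*, the common chain CD18, had scaled counts of 179, 313, 249 and 481 in pair-fed WT mice, 330, 175, 233, 538 and 344 in pair-fed *Apoe* KO mice, 174, 303, 195, 279 and 229 in EtOH-fed WT mice, and 505, 415, 667 and 411 in the EtOH-fed *Apoe* KO group. All EtOH-fed *Apoe* KO mice exceeded all EtOH-fed WT mice, and the log2 difference was 1.08 ± 0.20 (SE, adjusted p = 0.00951). *Itgax*, the α chain CD11c of macrophages and dendritic cells, had scaled counts of 109, 79, 60 and 143 in pair-fed WT mice, 140, 54, 96, 148 and 84 in pair-fed *Apoe* KO mice, 62, 66, 65, 77 and 103 in EtOH-fed WT mice, and 91, 148, 246 and 112 in the EtOH-fed *Apoe* KO group. The groups overlapped, and EtOH-fed *Apoe* KO mouse 4 was the highest of all mice. Its log2 difference of 0.91 ± 0.29 (SE, adjusted p = 0.0948) was not called. *Itgam*, the α chain CD11b of neutrophils and monocytes, had 88 ± 37.2 in EtOH-fed *Apoe* KO and 49.6 ± 22 in EtOH-fed WT mice (log2 difference 0.85, adjusted p = 0.249), and the 4 pair-fed WT mice alone ranged from 12 to 113. Of 8 other adhesion genes, *Fermt3*, the integrin activator kindlin-3, was called higher by 0.81 (adjusted p = 0.0407).

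Receptors for complement fragments and formyl peptides guide phagocytes to sites of injury. *C3ar1*, the receptor of complement fragment C3a, had scaled counts of 161, 125, 145 and 212 in pair-fed WT mice, 102, 84, 97, 125 and 144 in pair-fed *Apoe* KO mice, 109, 188, 153, 203 and 148 in EtOH-fed WT mice, and 284, 263, 430 and 335 in the EtOH-fed *Apoe* KO group. The EtOH-fed *Apoe* KO mice lay above all 14 other mice, and the log2 difference under ethanol was 1.04 ± 0.21 (SE, adjusted p = 0.0151). *Fpr1*, which binds formylated peptides of bacteria and mitochondria, had scaled counts of 52, 103, 103 and 136 in pair-fed WT mice, 19, 34, 28, 108 and 139 in pair-fed *Apoe* KO mice, 39, 121, 58, 50 and 43 in EtOH-fed WT mice, and 188, 110, 119 and 165 in the EtOH-fed *Apoe* KO group. EtOH-fed WT mouse 2, at 121, was above EtOH-fed *Apoe* KO mice 2 and 4, and the pair-fed *Apoe* KO mice ranged from 19 to 139. The log2 difference was 1.31 ± 0.32 (SE, adjusted p = 0.0386), and 11 of 15 alternatives did not keep the call (adjusted p from 0.00870 to 0.112). *C5ar1*, the receptor of C5a, had 109 ± 22.7 in EtOH-fed *Apoe* KO and 72 ± 14.8 in EtOH-fed WT mice, and its log2 difference of 0.59 (adjusted p = 0.208) was not called. It lies 3.44 Mb from *Apoe*. Of 9 other chemoattractant receptors, *Cmklr1*, the chemerin receptor, and *Cx3cr1*, the fractalkine receptor, were called higher, by 1.41 (adjusted p = 0.00387) and 1.36 (adjusted p = 0.0321). *C5ar2*, the second receptor of C5a, was called lower by -1.05 (adjusted p = 0.0295). Leaving out the 3 members within 20 Mb of *Apoe*, 26 of the remaining 36 were called higher at a median log2 difference of 1.03.

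All 4 growth factor receptors and transcription factors were called higher in *Apoe* KO than in WT mice under ethanol. *Spi1*, which encodes PU.1, had scaled counts of 277, 329, 191 and 324 in pair-fed WT mice, 174, 148, 201, 369 and 274 in pair-fed *Apoe* KO mice, 116, 236, 165, 236 and 167 in EtOH-fed WT mice, and 520, 332, 524 and 458 in the EtOH-fed *Apoe* KO group. The EtOH-fed genotypes did not overlap, and the log2 difference was 1.34 ± 0.22 (SE, adjusted p = 0.00531). *Csf1r*, the receptor that macrophages need for survival, had scaled counts of 1273, 1415, 1413 and 1846 in pair-fed WT mice, 1183, 847, 871, 1543 and 1500 in pair-fed *Apoe* KO mice, 812, 1306, 717, 1152 and 917 in EtOH-fed WT mice, and 2590, 1497, 1928 and 1988 in the EtOH-fed *Apoe* KO group. EtOH-fed *Apoe* KO mouse 1 was the highest of all 18 mice, at 2590, and the log2 difference was 1.04 ± 0.19 (SE, adjusted p = 0.00816). *Irf8*, a partner of PU.1 in monocytes and dendritic cells, had 593 ± 100.5 in EtOH-fed *Apoe* KO and 351 ± 60.2 in EtOH-fed WT mice (log2 difference 0.76, adjusted p = 0.0222), and 3 of 15 alternatives did not keep the call (adjusted p from 0.0133 to 0.0728). *Csf2rb*, the common β chain of the receptors for GM-CSF, IL-3 and IL-5, had 352 ± 68.1 in EtOH-fed *Apoe* KO and 214 ± 35.2 in EtOH-fed WT mice (log2 difference 0.71, adjusted p = 0.0432), and 9 of 15 did not (adjusted p from 0.0208 to 0.114). *Csf2rb* may share reads with its close paralog *Csf2rb2*. None of 17 other measured ligands, receptors and factors of this kind was called in either direction, although their median log2 difference was 0.28.

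The surface and scavenger markers included the largest difference, that of *Gpnmb*. *Cd68*, a lysosomal sialomucin of macrophages, had scaled counts of 196, 280, 319 and 487 in pair-fed WT mice, 300, 248, 249, 337 and 379 in pair-fed *Apoe* KO mice, 187, 275, 186, 231 and 222 in EtOH-fed WT mice, and 595, 508, 585 and 546 in the EtOH-fed *Apoe* KO group. The EtOH-fed *Apoe* KO mice lay close together and above all 14 other mice, with a log2 difference of 1.35 ± 0.15 (SE, adjusted p = 0.000725). *Lgals3*, the lectin galectin-3 that binds damaged lysosomes, had scaled counts of 311, 362, 266 and 503 in pair-fed WT mice, 277, 191, 254, 402 and 365 in pair-fed *Apoe* KO mice, 200, 230, 207, 286 and 230 in EtOH-fed WT mice, and 522, 384, 888 and 742 in the EtOH-fed *Apoe* KO group. The EtOH-fed genotypes did not overlap, and they differed by 1.39 ± 0.22 (SE, adjusted p = 0.00387). *Gpnmb*, a glycoprotein of lipid-laden macrophages, had 146 ± 125 in EtOH-fed *Apoe* KO and 23 ± 9.75 in EtOH-fed WT mice, a log2 difference of 2.36 ± 0.48 (SE, adjusted p = 0.0147) with a wide spread among *Apoe* KO mice (54 to 328). *Adgre1*, which encodes the macrophage antigen F4/80, had 622 ± 194 in EtOH-fed *Apoe* KO and 219.8 ± 85.7 in EtOH-fed WT mice (log2 difference 1.54, adjusted p = 0.0104), and *Cd86*, a costimulatory ligand, had 261 ± 92.3 in EtOH-fed *Apoe* KO and 105 ± 17.5 in EtOH-fed WT mice (log2 difference 1.25, adjusted p = 0.0128). The scavenger receptor *Msr1*, at 625 ± 157 in EtOH-fed *Apoe* KO and 459 ± 90.5 in EtOH-fed WT mice, and the mannose receptor *Mrc1*, at 1654 ± 311 in EtOH-fed *Apoe* KO and 1303 ± 136 in EtOH-fed WT mice, were not called, at log2 differences of 0.43 (adjusted p = 0.251) and 0.33 (adjusted p = 0.193). Of 16 other scavenger and surface genes 4 were called higher: *Cd14*, the lipopolysaccharide coreceptor, by 1.63 (adjusted p = 0.000807), the Kupffer cell scavenger receptor *Marco* by 1.5 (adjusted p = 0.014), the tetraspanin *Cd9* by 0.70 (adjusted p = 0.0158) and the collectin *Colec12* by 0.49 (adjusted p = 0.0279).

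All 3 lysosomal and granule members were called higher. *Lyz2*, the lysozyme of myeloid cells, had scaled counts of 2224, 2663, 2189 and 3594 in pair-fed WT mice, 2582, 1926, 2475, 3599 and 3460 in pair-fed *Apoe* KO mice, 1314, 2398, 1358, 2380 and 1551 in EtOH-fed WT mice, and 5376, 3736, 6198 and 5191 in the EtOH-fed *Apoe* KO group. All 4 EtOH-fed *Apoe* KO mice lay above all 14 other mice, and the log2 difference was 1.54 ± 0.20 (SE, adjusted p = 0.00151), or 2.9-fold. Reads may be shared with its paralog *Lyz1*. *Laptm5*, a lysosomal membrane protein of leukocytes, had scaled counts of 536, 1007, 655 and 930 in pair-fed WT mice, 861, 608, 654, 1306 and 948 in pair-fed *Apoe* KO mice, 560, 705, 486, 672 and 659 in EtOH-fed WT mice, and 1669, 936, 1486 and 1327 in the EtOH-fed *Apoe* KO group. The EtOH-fed genotypes did not overlap, with a log2 difference of 1.12 ± 0.17 (SE, adjusted p = 0.00331). *Ctss*, a cysteine protease that processes antigen, had 2068 ± 459 in EtOH-fed *Apoe* KO and 888 ± 236 in EtOH-fed WT mice (log2 difference 1.23, adjusted p = 0.00387). Of 14 other lysosomal genes, which most cells express, 3 were called higher: the protease *Lgmn* by 1.18 (adjusted p = 0.000807), *Psap*, the precursor of the saposins, by 0.46 (adjusted p = 0.0429) and the hexosaminidase chain *Hexa* by 0.44 (adjusted p = 0.0486).

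Of the 6 pan-leukocyte members 3 were called higher. *Cd53*, a tetraspanin, had scaled counts of 202, 383, 298 and 519 in pair-fed WT mice, 243, 231, 208, 335 and 362 in pair-fed *Apoe* KO mice, 164, 238, 150, 219 and 176 in EtOH-fed WT mice, and 388, 351, 368 and 423 in the EtOH-fed *Apoe* KO group. The EtOH-fed genotypes did not overlap, and the log2 difference was 1.03 ± 0.17 (SE, adjusted p = 0.00519). *Lcp1*, the actin-bundling protein L-plastin, had scaled counts of 2149, 2371, 2525 and 2241 in pair-fed WT mice, 2988, 2338, 2351, 2830 and 2676 in pair-fed *Apoe* KO mice, 2033, 1958, 2135, 1740 and 2247 in EtOH-fed WT mice, and 2942, 2864, 3328 and 2765 in the EtOH-fed *Apoe* KO group. Its groups were narrow, and a log2 difference of only 0.56 ± 0.10 (SE, adjusted p = 0.00966) passed the threshold. *Cd52*, a small glycoprotein of lymphocytes and monocytes, had 396 ± 113 in EtOH-fed *Apoe* KO and 204 ± 31.3 in EtOH-fed WT mice (log2 difference 0.93, adjusted p = 0.016). *Ptprc*, which encodes the leukocyte common antigen CD45, had 586 ± 188 in EtOH-fed *Apoe* KO and 381 ± 66.2 in EtOH-fed WT mice (log2 difference 0.59, adjusted p = 0.121), *Coro1a*, an actin-binding coronin, had 391 ± 152 in EtOH-fed *Apoe* KO and 226 ± 29.8 in EtOH-fed WT mice (0.73, adjusted p = 0.0797), and *Aif1*, which encodes the macrophage protein IBA1, had 216 ± 60.2 in EtOH-fed *Apoe* KO and 123 ± 16.5 in EtOH-fed WT mice (0.78, adjusted p = 0.0538). These 3 were not called. Of 18 other leukocyte genes 8 were called higher, with the smallest p-values for the coactosin *Cotl1* (0.87, adjusted p = 0.00816), *Cyth4* (1.12, adjusted p = 0.00929), *Rac2* (1.13) and *Hcls1*, a hematopoietic substrate of LYN (0.95, adjusted p = 0.0107). Over the 118 listed relatives that were measured, 29 were called higher and 1 lower, at a median log2 difference of 0.51. Of all genes, 4.25% were called higher and 0.445% lower, at a median of 0.11. *Rac2* and *Vav1* stand in more than 1 list and are counted once here. The count fell to 15 without EtOH-fed *Apoe* KO mouse 4 and to 17 without mouse 5 of that group or EtOH-fed WT mouse 1, and it was 22 without mouse 1 of that group.

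The pair-fed mice give the same genotype comparison without ethanol. *Gpnmb* alone was called higher in *Apoe* KO than in WT mice, and none was called lower, against 0.87% and 0.864% of all genes. Its scaled counts were 17, 24, 18 and 12 in pair-fed WT and 42, 134, 66, 149 and 38 in pair-fed *Apoe* KO mice. The groups did not overlap, at a log2 difference of 2.03 ± 0.44 (SE, adjusted p = 0.0353). The call was lost when pair-fed WT mouse 1, 2 or 4 or pair-fed *Apoe* KO mouse 2, 3 or 4 was left out, with an adjusted p up to 0.115 (without pair-fed WT mouse 4). Of the 39 members, 12 lay above 0 and 27 below, at a median log2 difference of -0.20, while 49.3% of all genes lay above 0. *Trem2*, with the next largest log2 difference, had 54 ± 32.3 in pair-fed WT mice, 98.6 ± 35 in pair-fed *Apoe* KO mice, 46.4 ± 10.6 in EtOH-fed WT mice, and 184 ± 69.6 in EtOH-fed *Apoe* KO mice, and its pair-fed groups overlapped.

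**Figure D3:**
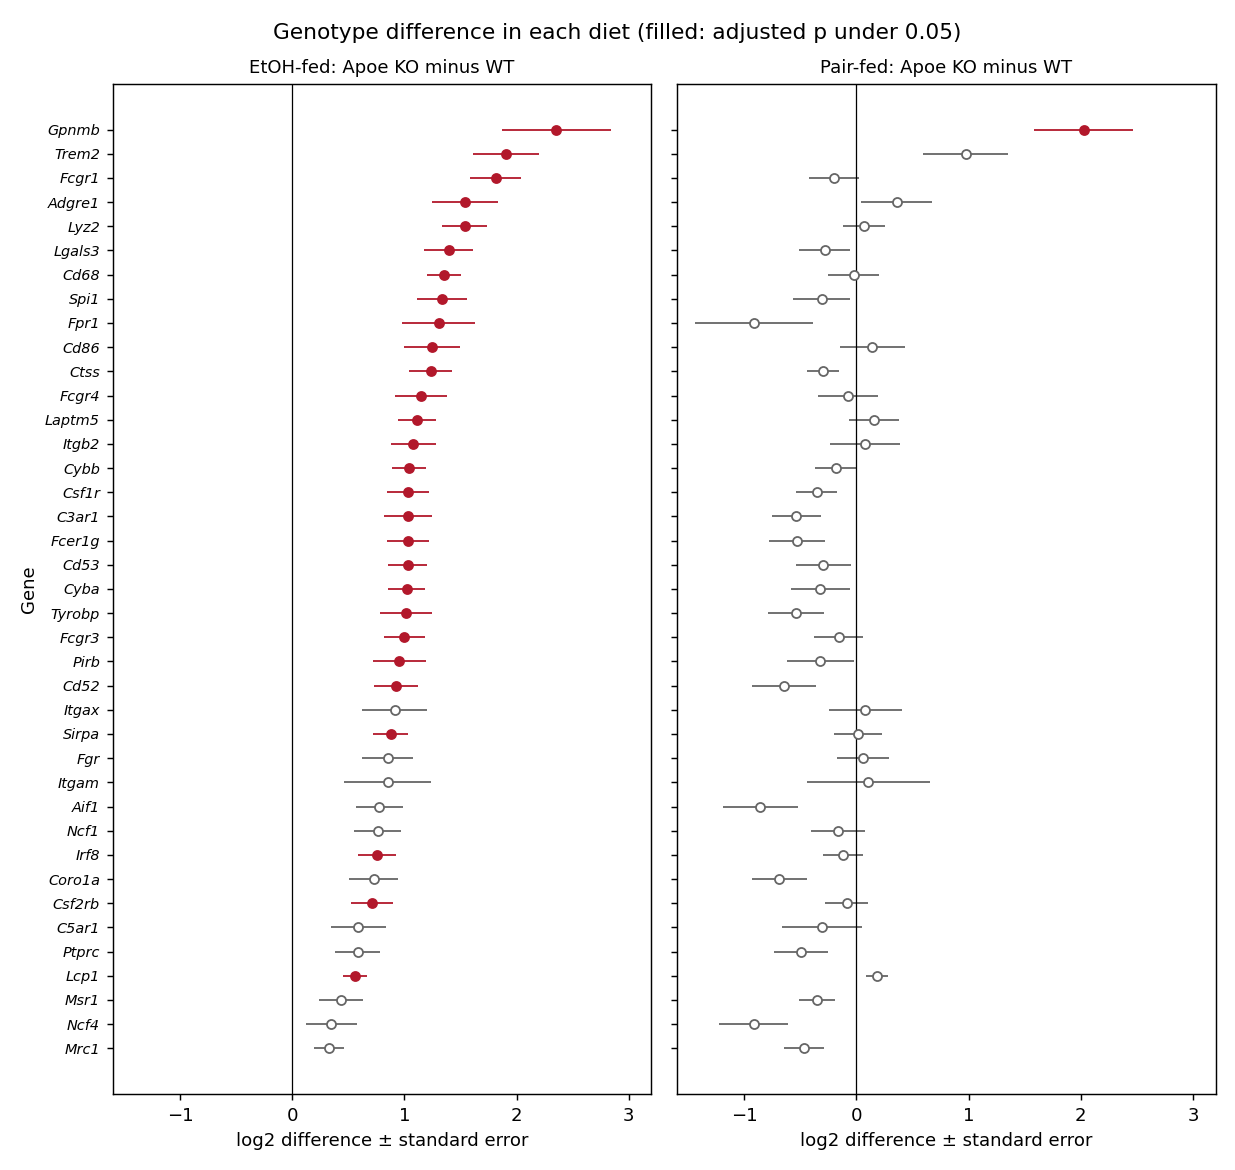
Points give the log2 difference of *Apoe* KO minus WT for each member with its standard error, in EtOH-fed mice (left) and pair-fed mice (right), and filled points have an adjusted p under 0.05. All 39 points lie above 0 on the left with 28 filled, and 12 lie above 0 on the right with 1 filled.

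Ethanol in WT mice went with lower levels of part of the set. Of the 39 members 34 had a log2 difference below 0 between EtOH-fed and pair-fed WT mice, 11 were called lower and none higher, at a median log2 difference of -0.52. Of all genes, 6.52% were called lower, 6.19% were called higher, and 48.7% had a difference above 0. Without overlap, EtOH-fed WT mice were lower in 8 members, which 6.96% of all genes were. The members called lower were *Aif1*, at -1.38 ± 0.22 (SE, adjusted p = 0.00183), *Fcgr1*, at -1.19 ± 0.23 (SE, adjusted p = 0.00489), *Tyrobp*, at -1.02 ± 0.25 (SE, adjusted p = 0.0186), *Fcer1g*, *Cd52*, *Cd53*, *Coro1a*, *Ctss*, *Csf1r*, *Lgals3* and *Cybb*, the last 8 between -0.88 and -0.54. *Aif1* had scaled counts of 346, 329, 198 and 461 in pair-fed WT and 108, 138, 104, 128 and 139 in EtOH-fed WT mice, with no overlap. Both adaptors and the gene of IBA1 thus stood among the genes with lower levels. Of the Kupffer cell and monocyte markers 2 of 7 each (*Clec4f* and *Cd5l*, *Plac8* and *Vcan*) were also called lower, as were 2 of 6 cholangiocyte, 1 of 7 T cell and 1 of 3 NK cell markers. Higher calls were made for 6 of 8 sinusoidal endothelial and 3 of 12 hepatocyte markers. The count was lowest without pair-fed WT mouse 4, the highest of its group in most members: without it 4 members were called lower, at a median of -0.37. There were 6 without pair-fed WT mouse 2 and 7 without EtOH-fed WT mouse 1 or mouse 3. Calls for 4 of the 11 held under every alternative, those of *Aif1*, *Fcgr1*, *Fcer1g* and *Cd52*.

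Ethanol in *Apoe* KO mice went the other way. All 39 members had a higher mean in EtOH-fed than in pair-fed *Apoe* KO mice, 17 were called higher and none lower, at a median log2 difference of 0.70. Of all genes, 16.3% were called higher, 6.92% were called lower, and 63.2% lay above 0. In 10 members the groups did not overlap, which held for 14% of all genes in this direction. The median of all genes was 0.13, and with size factors the medians were 0.57 and 0.00 with 14 members called. The share of all calls in the higher direction was 70.1% as deposited and 50.8% with size factors. All chemoattractant receptors, Fc receptors, and lysosomal and granule members were called. *C3ar1* differed by 1.56 ± 0.21 (SE, adjusted p = 0.000234), *Fpr1* by 1.52 ± 0.51 (SE, adjusted p = 0.0448) and *C5ar1* by 1.42 ± 0.32 (SE, adjusted p = 0.00604). *Msr1* and *Mrc1*, which were not called between the EtOH-fed genotypes, were higher by 1.07 (adjusted p = 0.000744) and 0.93 (adjusted p = 0.00371), and 7 of 8 sinusoidal endothelial markers, a cell type that also expresses *Mrc1*, were called higher in the same comparison. In all, 23 of 84 markers were called higher there and 1 lower, the higher ones including 5 of 8 stellate cell, 3 of 7 Kupffer cell, 2 of 7 T cell, 2 of 4 erythroid and 1 of 7 monocyte markers. None of the 6 pan-leukocyte members and none of the adaptors and their partners was called. *Cd68* (0.90, adjusted p = 0.00105), *Lgals3* (1.06, adjusted p = 0.00897), *Fcgr4* (1.16, adjusted p = 0.00585), *Fcgr3* (0.93, adjusted p = 0.00234), *Fcgr1* (0.83, adjusted p = 0.0181), *Spi1* (1.03, adjusted p = 0.00899), *Csf1r* (0.77, adjusted p = 0.0132), *Lyz2* (0.88, adjusted p = 0.0038), *Ctss* (0.83, adjusted p = 0.00304), *Laptm5* (0.65, adjusted p = 0.0412), *Cyba* (0.71, adjusted p = 0.0443) and *Cybb* (0.69, adjusted p = 0.0153) made up the rest of the 17 calls. Without EtOH-fed *Apoe* KO mouse 1, 13 remained called, and *Cyba*, *Fcgr1*, *Fpr1* and *Laptm5* were not. Under every alternative 12 of the 17 calls held. These mice also enter the comparison of the EtOH-fed genotypes, so the comparisons are not independent.

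The difference between the diet responses was tested directly, as the interaction of diet and genotype on all 18 mice. All 39 members had an interaction above 0, meaning a larger ethanol difference in *Apoe* KO than in WT mice, and 17 were called, at a median of 1.22. Of all genes, 2.6% were called in this direction and 0.239% in the other, and 62.1% had an interaction above 0, at a median of 0.11. The share of all calls in this direction was 91.6% as deposited and 77.8% with size factors, where 15 members were called. The largest interactions among those called were those of *Fcgr1*, at 2.01 ± 0.33 (SE, adjusted p = 0.00443), *Lgals3*, at 1.68 ± 0.34 (SE, adjusted p = 0.0113), and *Spi1*, at 1.65 ± 0.36 (SE, adjusted p = 0.0165). *Fcgr1* had means of 206 ± 55.3 in pair-fed WT mice, 179 ± 46.9 in pair-fed *Apoe* KO mice, 89.2 ± 19.2 in EtOH-fed WT mice, and 319 ± 87 in EtOH-fed *Apoe* KO mice, which is a lower level with ethanol in WT and a higher one in *Apoe* KO mice, each called. The same held for *Cybb*, *Csf1r*, *Lgals3* and *Ctss*, but their calls in WT mice were less firm. Of 15 alternatives, 8 did not keep the WT call of *Lgals3*, 6 that of *Csf1r*, 5 that of *Cybb* and 1 that of *Ctss*. *C3ar1*, with an interaction of 1.57 ± 0.31 (SE, adjusted p = 0.0101), was called with ethanol in *Apoe* KO but not in WT mice, with means of 161 ± 37.2 in pair-fed WT mice, 110.4 ± 23.9 in pair-fed *Apoe* KO mice, 160.2 ± 36.8 in EtOH-fed WT mice, and 328 ± 74.4 in EtOH-fed *Apoe* KO mice. *Aif1* had means of 334 ± 108 in pair-fed WT mice, 196 ± 106 in pair-fed *Apoe* KO mice, 123 ± 16.5 in EtOH-fed WT mice, and 216 ± 60.2 in EtOH-fed *Apoe* KO mice, with an interaction of 1.63 ± 0.43 (SE, adjusted p = 0.0403), and was called with ethanol in WT but not in *Apoe* KO mice. *Fpr1* had a larger fitted interaction, 2.22 ± 0.67 (SE, adjusted p = 0.0841), that was not called, and *Gpnmb*, with 17.8 ± 4.92 in pair-fed WT mice, 85.8 ± 52.2 in pair-fed *Apoe* KO mice, 23 ± 9.75 in EtOH-fed WT mice, and 146 ± 125 in EtOH-fed *Apoe* KO mice, was not called either. Without pair-fed WT mouse 4, 8 members were called. There were 10 without pair-fed WT mouse 2 or EtOH-fed WT mouse 1, 11 without EtOH-fed *Apoe* KO mouse 4 and 23 without pair-fed *Apoe* KO mouse 4. Without EtOH-fed *Apoe* KO mouse 1 there were 16, *Aif1* being lost, and without EtOH-fed *Apoe* KO mouse 4 only 38 of 39 interactions were above 0.

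**Figure D4:**
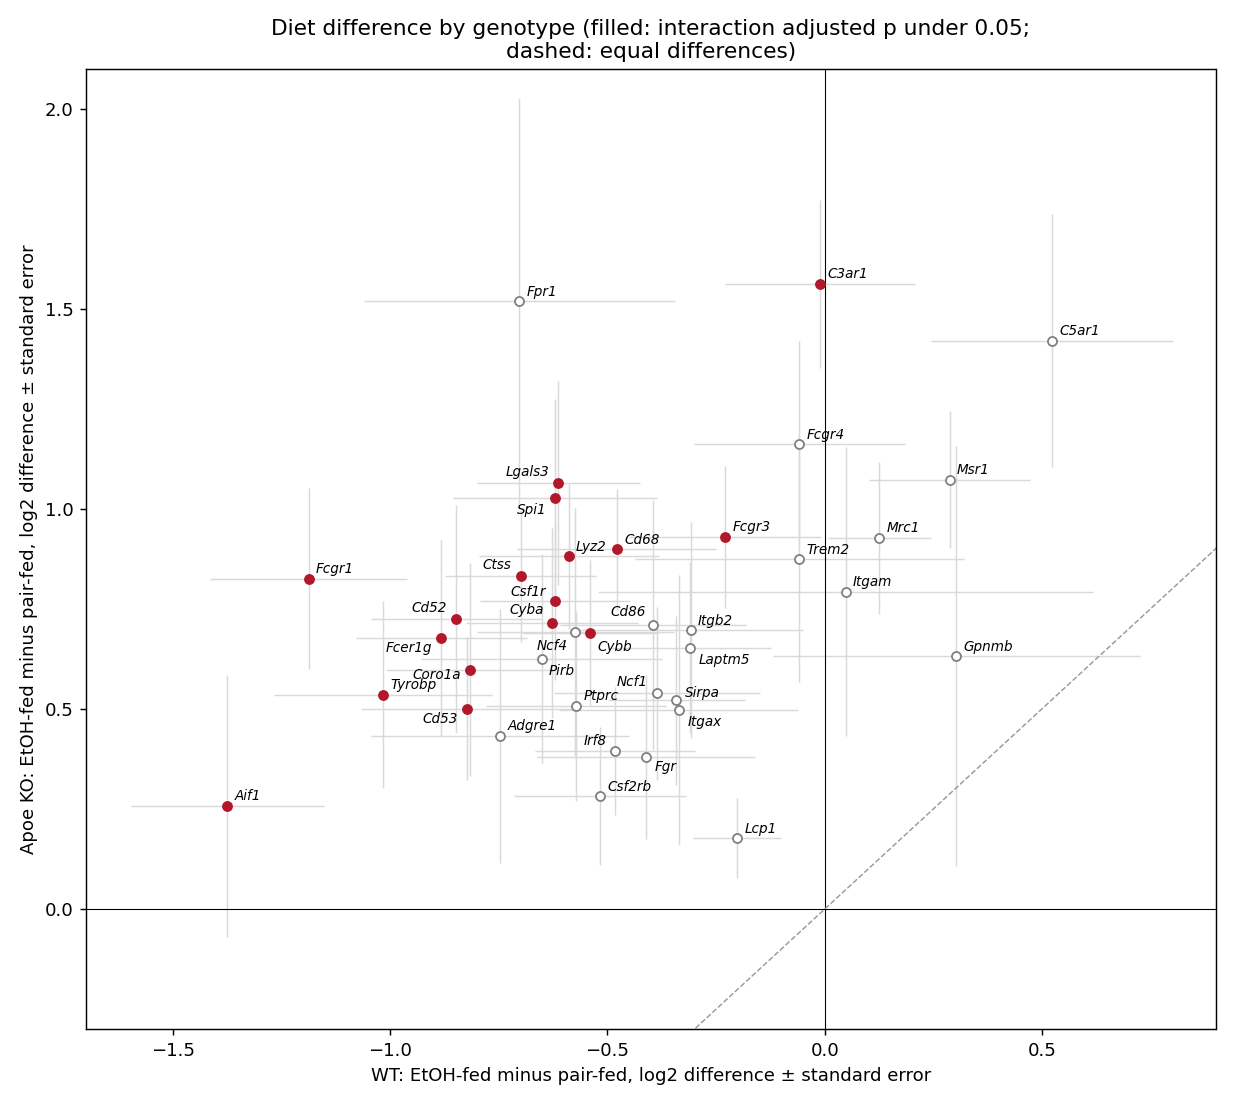
For each member, the log2 difference of EtOH-fed minus pair-fed mice is plotted for WT (horizontal) against *Apoe* KO (vertical), with standard errors as gray bars, and filled points have an interaction with adjusted p under 0.05. All 39 points lie above the dashed line of equal differences, and 34 lie left of 0 and above 0.

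The mean over the members gave each mouse a single log2 level. Relative to pair-fed WT mice (mean 0 ± 0.36, SD, n = 4), the mean log2 level was -0.16 ± 0.36 in pair-fed *Apoe* KO mice (n = 5), -0.455 ± 0.24 in EtOH-fed WT mice (n = 5) and 0.585 ± 0.27 in EtOH-fed *Apoe* KO mice (n = 4). The EtOH-fed groups did not overlap, at -0.76 to -0.20 and 0.24 to 0.91. EtOH-fed *Apoe* KO mouse 2 (0.24) lay within the range of the pair-fed mice, whose highest value was 0.48.

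Per kilobase of exon, *Lyz2* was the highest member, with a mean over the 4 groups of 2356 scaled counts per kb. *Ctss* followed at 1017, *Fcer1g* at 517, *Tyrobp* at 497 and *Cyba* at 440 per kb. Both adaptor genes were thus higher per length than the receptors they serve, such as *Fcgr4* at 195, *Fcgr3* at 164, *Fcgr1* at 76.7 and *Trem2* at 19.4 per kb. The length merges the exons of all annotated transcripts of a gene, 4946 bases for *Trem2* and 667 for *Tyrobp*. It can exceed the length of the transcript in use, and the order depends on it. *Itgam*, at 12.3, and *Gpnmb*, at 10.5 per kb, were the lowest. *Cyba* was above its partner *Cybb*, at 129 per kb, in each group.

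Within groups the members moved together from mouse to mouse. After each group's mean was removed, the mean correlation over the 741 pairs of members was 0.56 across 18 mice, with a range of -0.27 to 0.94, against 0.04 over all pairs of genes. The mice share a library for all genes, and correlations are given as a description. The oxidase genes were the tightest function, at a median of 0.84, followed by the pair of inhibitory receptors at 0.815 and the lysosomal members at 0.79. *Lyz2*, *Pirb* and *Cybb* had the highest median correlation with the other members, at 0.77, 0.77 and 0.75. *Gpnmb*, at 0.01, *Lcp1*, at 0.14, and *Trem2*, at 0.32, had the lowest.

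Markers of cell types that could carry these genes were read in the same mice. Between the EtOH-fed genotypes, 6 of 7 Kupffer cell markers were called higher in *Apoe* KO mice, at a median log2 difference of 1.20, and their summed scaled count was 10970 to 21263 in *Apoe* KO and 4656 to 8834 in WT mice. *Cd5l* differed by 1.77 (adjusted p = 0.0012), *Clec4f* by 1.12 (adjusted p = 0.00598) and *Timd4* by 1.20 (adjusted p = 0.0113). The marker not called, *Cd163*, had a log2 difference below 0, at -0.24. Of 7 monocyte markers 3 were called higher, *Plac8* and *Vcan* among them, with sums of 991 to 1835 and 422 to 747. Of 15 neutrophil markers listed 5 were measured and none was called, with sums of 177 to 501 and 175 to 256. Dendritic cell (0 of 7), T cell (0 of 7), platelet (0 of 3), erythroid (0 of 4), sinusoidal endothelial (0 of 8), stellate cell (0 of 8) and hepatocyte markers (0 of 12) gave no call, while 1 of 7 B and plasma cell, 1 of 3 NK cell and 1 of 6 cholangiocyte markers (*Jchain*, *Klrk1* and *Krt19*) were called higher. Between the EtOH-fed genotypes 4.25% of all genes were called higher and 0.445% lower. A list of a few genes without a call thus does not show that its cell type was unchanged. No measured marker was at 0 in all mice of a group. These 12 calls among 84 measured markers became 6 with size factors, 5 without EtOH-fed WT mouse 1 or EtOH-fed *Apoe* KO mouse 5, 6 without EtOH-fed WT mouse 5 or EtOH-fed *Apoe* KO mouse 4, and 7 without EtOH-fed WT mouse 3. There were 10 without EtOH-fed *Apoe* KO mouse 1. The part of cell numbers in the differences of the members was not tested.

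**Figure D5:**
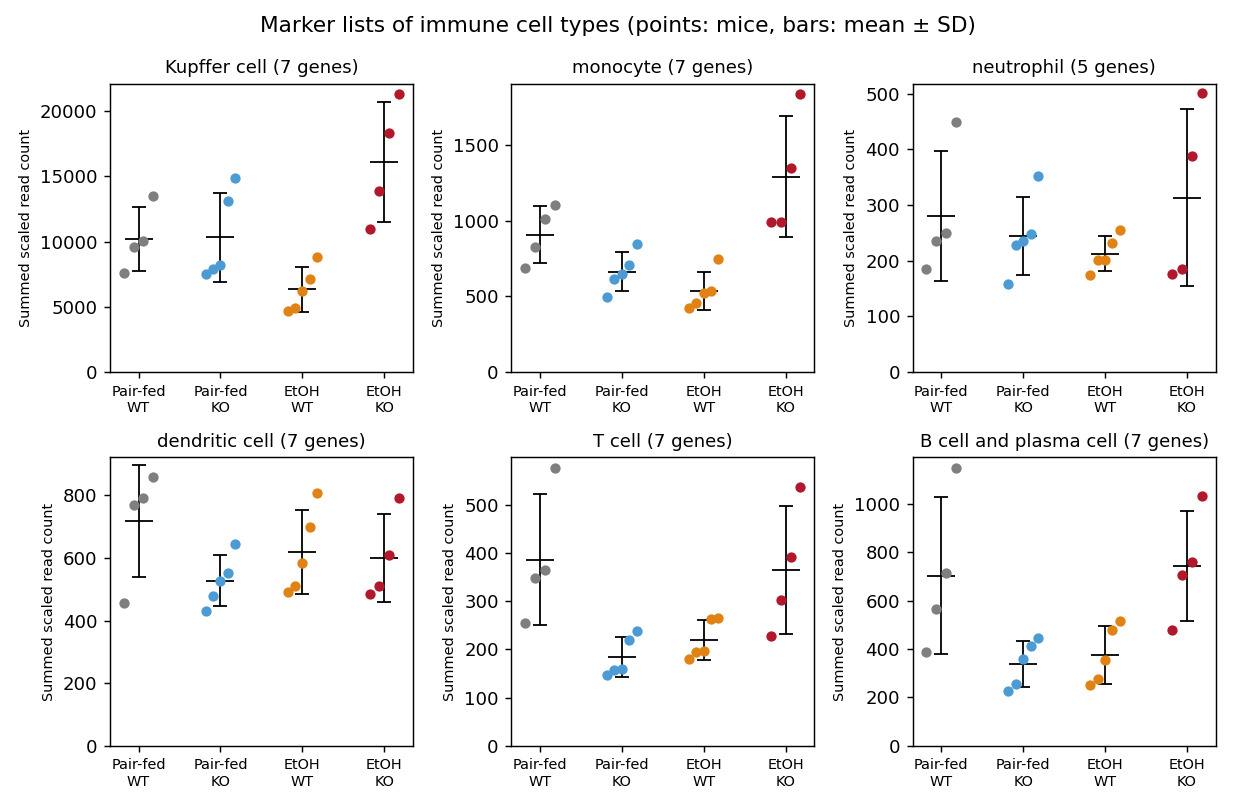
Each panel shows the summed scaled read count of a marker list (linear axis from 0) by group, with points for mice and bars for mean ± SD. EtOH-fed *Apoe* KO mice lay above all EtOH-fed WT mice for Kupffer cell and monocyte lists and overlapped them for the other 4 lists.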

How the data were processed

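Liver RNA of 18 mice was analyzed, grouped by the deposited labels. Per the labels and the paper, the authors isolated RNA with TRIzol, selected polyadenylated RNA, and processed reads with FastQC, Trimmomatic, HISAT2, SAMtools, featureCounts and DESeq2 on GRCm38. Versions and counting settings, strand included, were not given in the sources used here. The signal deposited by the authors for each mouse is a read count per gene, brought to almost the same total in each mouse and rounded, by a step that is not described. Reads of shallow libraries thus appear in coarse steps. Genes with a mean under 12.1 were absent, and 195 lines that repeated an Ensembl identifier were dropped, keeping the first. The authors' own comparison columns (mean, log2 fold change, its error, p-values and ranks) were not used.

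Groups were compared with limma 3.58.1 (R 4.3.3) on log2(signal + 1) with an intensity trend, fitted to all 15052 genes with Benjamini-Hochberg adjustment, using the mice of the 2 groups, or all 18 mice for the interaction. Fold changes are on the log2(signal + 1) scale, which understates changes of low genes. Count tests were not run because whole reads could not be recovered in 2 of 18 mice. Depth was estimated from the spacing of low values. Positions and exon lengths come from GENCODE release M21 (GRCm38), in which 15040 genes were placed. P-values measure the spread between these mice.

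The members, the lists of related genes and markers, and the tests were chosen with earlier results of these data known. All members are named. Values per mouse are given for oxidase, Fc receptor and adaptor genes and for the 2 members with the smallest p in each other function, and related genes are named where called between the EtOH-fed genotypes, at most 4 per function. Some related genes and markers are not reported here. The settings varied were size factors by median of ratios, a pseudocount of 10, a mean of at least 50, sample quality weights, the mouse number as a block, all 4 groups in the fit, and leaving out each mouse. The fit with the block held only mice whose number occurred in every compared group.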

Additional observations from a re-analysis of the deposited data

Results flagged for a closer look

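In 2 of 156 sets of values (39 members in 4 groups), a mouse stood apart from the rest of its group on the log2(scaled count + 1) scale by Dixon's criterion at 95%, which chance gives in about 1 of 20 sets. *Cybb* was low in EtOH-fed *Apoe* KO mouse 2, with a scaled count of 766 against 1129 to 1211. Its gap was 0.847 of the range of the group on the log2 scale, above the critical value of 0.829, but 0.816 on the scaled counts themselves, below it. *Cd52* was low in pair-fed *Apoe* KO mouse 2, with a scaled count of 106 against 279 to 292, a gap of 0.955 on the log2 scale and 0.930 on the scaled counts, both above the critical value of 0.71. On the scaled counts alone the criterion also marked *Fpr1* in EtOH-fed WT mouse 2 (0.768), *Ctss* in pair-fed WT mouse 4 (0.834) and *Cd52* in EtOH-fed *Apoe* KO mouse 4 (0.854).

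The ethanol difference depended on genotype, by the interaction test in limma (adjusted p under 0.05), in 17 members, each with a larger difference in *Apoe* KO than in WT mice. On the log2 scale the interaction was 2.014 for *Fcgr1*, 1.677 for *Lgals3*, 1.649 for *Spi1*, 1.633 for *Aif1*, 1.574 for *Cd52* and 1.572 for *C3ar1*. It was 1.560 for *Fcer1g*, 1.552 for *Tyrobp*, 1.532 for *Ctss*, 1.471 for *Lyz2*, 1.415 for *Coro1a* and 1.391 for *Csf1r*. For *Cd68* it was 1.378, for *Cyba* 1.342, for *Cd53* 1.324, for *Cybb* 1.229 and for *Fcgr3* 1.159. Only 8 of the 17 calls held under every alternative. Of 23 alternatives, 14 did not keep the call of *Aif1*, 10 that of *Fcgr3*, 9 that of *Cyba* and 7 that of *Coro1a*. The calls of *Cd53*, *Tyrobp*, *Cd52*, *Fcer1g* and *Spi1* were lost in fewer.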

How the results depend on the processing

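No called result turned its direction under any alternative run. The members called higher between the EtOH-fed genotypes (28) numbered 22 to 29 when a mouse was left out, and those between the pair-fed genotypes (1) 0 to 1. The 11 members called lower with ethanol in WT mice numbered 4 (without pair-fed WT mouse 4) to 14, the 17 called higher in *Apoe* KO mice 13 to 22, and the 17 interactions 8 (without pair-fed WT mouse 4) to 23. Called related genes (29) numbered 15 to 32 and called markers (12) 5 to 12. The counts of members called in the opposite direction stayed 0 to 0 when a mouse was left out. With size factors, 6 markers were called. Whether equal mouse numbers mark shared handling is not stated, and they were not taken to pair the animals. Deviations of same-numbered EtOH-fed mice correlated at -0.0242 to 0.230 (mean 0.135), against a mean of -0.0327 for different numbers. Of 4 mice, 3 were best matched to their own number, a hint of pairing from the data that was not settled. The other comparisons gave means of 0.0358 or less for same-numbered mice. With the number as a replicate block, 26 members were called between the EtOH-fed genotypes, 1 lower between the pair-fed genotypes (0 without the block), 14 lower in WT and 20 higher in *Apoe* KO mice with ethanol, and 18 in the interaction. The block kept only mice whose number every compared group held, so these counts also rest on fewer mice. EtOH-fed WT mouse 3 was thus absent between the EtOH-fed genotypes, and the interaction used only mice numbered 1, 2 and 4. Over all genes, 639 were called higher and 67 lower between the EtOH-fed genotypes as deposited, against 380 and 126 with size factors. Depth limits low genes: 1 read stood, where resolved, for up to 4.09 units in EtOH-fed and 5.76 units in pair-fed mice, so differences of a few units were not detectable.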

Other observations

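The genes of the related lists that follow were singled out after their values were seen. All 6 related genes called higher with ethanol in WT mice were also called higher with ethanol in *Apoe* KO mice. They were 4 lysosomal genes and 2 adhesion genes. *Ctsl*, a lysosomal protease of most cells, was higher by 1.72 log2 units (adjusted p = 1.39e-05) in WT and 1.57 (adjusted p = 1.24e-05) in *Apoe* KO mice. The protease *Ctsz* was higher by 0.41 (adjusted p = 0.035) and 0.54 (adjusted p = 0.00703), *Grn*, which encodes progranulin, by 0.55 (adjusted p = 0.00804) and 0.68 (adjusted p = 0.000751), and *Hexa* by 0.64 (adjusted p = 0.00294) and 0.64 (adjusted p = 0.000839). *Icam1*, a ligand of the β2 integrins, was higher by 0.64 (adjusted p = 0.0191) and 0.85 (adjusted p = 0.00105), and *Itga5*, a fibronectin receptor chain, by 0.61 (adjusted p = 0.0135) and 0.53 (adjusted p = 0.00359). Of 118 related genes measured, 6 were called higher and 11 lower with ethanol in WT mice, against 6.19% and 6.52% of all genes. In *Apoe* KO mice 38 were called higher and 5 lower with ethanol, against 16.3% and 6.92% of all genes. How many of all genes called higher in WT mice were also called higher in *Apoe* KO mice was not counted.

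Of 17 genes related to the growth factor receptors and transcription factors, 6 were called higher and 3 lower with ethanol in *Apoe* KO mice. The lower ones included *Cebpb*, at a log2 difference of -0.72 (adjusted p = 0.0285), and *Cebpa*, also a hepatocyte factor, at -0.38 (adjusted p = 0.00637). *Nox4*, an oxidase catalytic subunit outside the phagocyte complex, had a log2 difference of 1.04 (adjusted p = 0.0354) between pair-fed *Apoe* KO and WT mice and of -1.46 (adjusted p = 9.95e-05) with ethanol in *Apoe* KO mice. *Cd163*, the hemoglobin scavenger receptor of Kupffer cells, had the opposite order, with -1.91 (adjusted p = 0.000541) and 1.40 (adjusted p = 0.0049). The pair-fed genotype comparison and the ethanol comparison share the pair-fed *Apoe* KO mice.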
